A study of Mus musculus with 4 samples.

Results

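The 34 listed type I interferon-stimulated genes were followed through each cell class and each library of a mouse tumour single-cell RNA study. Members were the rows of the feature tables that carry the listed symbols, and 32 of the 34 were matched among 32285 genes. Mx1 and Mx2 were not analysed here. The study gave 4 libraries from C57Bl6 mice aged 6 to 8 weeks: 2 tumours labelled Control and 2 labelled Nanocapsule, called Control 1, Control 2, Nanocapsule 1 and Nanocapsule 2 below. All 4 carry the tissue label tumour, and the labels give neither the tumour line, the content or dose of the nanocapsules, nor the time of sampling. The series title concerns capsules of enzymes and the immune therapy of tumours. No label says whether the libraries came from separate animals, so p-values here measure only the spread between these libraries.

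Type I interferons (the alpha and beta interferons) are released by cells that sense viral or misplaced nucleic acid, and they bind a receptor made of Ifnar1 and Ifnar2 on nearly every cell type. Receptor-bound Janus kinases then activate a complex that holds Irf9 and binds the interferon-stimulated response element (ISRE) in front of the target genes. The products block viral replication, sense nucleic acid, or, as Irf7 and Usp18 do, amplify or damp the signal. Interferon gamma, from T and NK cells, uses another receptor and acts through the gamma-activated site (GAS), and its targets overlap with the type I list. In tumours the response is known from dendritic cells, macrophages and from tumour cells themselves.

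Promoters show how the members differ in their ISRE. RefSeq promoters (GRCm38.p6, 250 bases before to 50 after each start site) were matched for 25 of the members by symbol. The letters GAAA, any 2 bases and GAAA again, searched on both strands, stood in at least 1 promoter of 13 of these 25 (52%), against 3.44% of all 32851 promoters and 3.99% of the 27025 genes in that table. The GAS letters TTCNNNGAA, which read the same on both strands, stood in 6 of 25 (24%), against 8.30% of all promoters and 9.55% of the genes. The ISRE letters were found for Bst2, Ddx60, Eif2ak2, Ifih1, Ifit1, Ifit3, Ifit3b, Isg15, Oas1a, Oas3, Phf11b, Rsad2 and Trim30a, and not for Cmpk2, Dtx3l, Herc6, Ifi35, Ifi44, Ifit2, Irf7, Isg20, Oasl1, Oasl2, Samd9l and Xaf1. Promoters of 4 members are shown on the gene's strand, 250 bases up to the start site, with ISRE letters in capitals: Isg15 (minus strand of chr4:156200819-156201068) and Ifit3 (plus strand of chr19:34583279-34583528), whose treatment differences differed between cell classes, Bst2 (minus strand of chr8:71537473-71537722), the member with most UMIs, and Isg20 (plus strand of chr7:78913174-78913423), the member with the smallest p in tumour cells.
Isg15: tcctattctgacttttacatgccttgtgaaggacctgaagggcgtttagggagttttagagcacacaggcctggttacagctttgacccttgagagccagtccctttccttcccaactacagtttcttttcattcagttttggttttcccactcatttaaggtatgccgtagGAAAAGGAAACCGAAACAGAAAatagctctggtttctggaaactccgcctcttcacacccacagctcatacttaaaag
Ifit3: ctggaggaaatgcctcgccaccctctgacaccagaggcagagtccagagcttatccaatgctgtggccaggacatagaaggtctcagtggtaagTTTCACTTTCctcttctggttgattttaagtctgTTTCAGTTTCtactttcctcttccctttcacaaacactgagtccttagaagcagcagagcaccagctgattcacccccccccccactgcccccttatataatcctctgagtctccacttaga
Bst2: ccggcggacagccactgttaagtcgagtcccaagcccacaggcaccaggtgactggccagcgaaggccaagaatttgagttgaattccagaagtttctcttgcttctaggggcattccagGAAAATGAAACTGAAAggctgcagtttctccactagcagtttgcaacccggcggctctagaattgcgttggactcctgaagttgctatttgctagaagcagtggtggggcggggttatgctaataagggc
Isg20: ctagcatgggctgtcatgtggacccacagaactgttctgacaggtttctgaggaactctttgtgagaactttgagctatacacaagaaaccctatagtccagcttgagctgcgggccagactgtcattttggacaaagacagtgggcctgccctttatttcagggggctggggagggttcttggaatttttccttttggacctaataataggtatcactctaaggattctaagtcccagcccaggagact
Isg15 held 3 overlapping matches, beginning at -78, -72 and -66 from the start site. Bst2 held 2 overlapping matches at -130 and -124, and Ifit3 held 2 on the other strand at -156 and -122. Isg20 held none in any of its 3 promoters, and it was among the 6 members with the GAS letters. A match is a description of letters and not a bound site, and its absence says only that the letters are not in this window.

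Each library held 98943390 to 140491491 UMIs (unique molecular identifiers, 1 per captured transcript). Of the barcodes, 9548 were called cells: 3837 and 1840 in the controls, 2294 and 1577 in the nanocapsule libraries, and each pair of libraries shared 1 to 13 cell barcodes. The labels call the material cancer cells. The marker genes showed 6598 melanocytic tumour-like cells (Dct, Pmel, Tyrp1), together with 492 macrophage-like, 216 T and NK-like, 157 B-like and 123 dendritic-like cells, 34 endothelial-like, 48 fibroblast-like and 29 neutrophil-like cells, 1133 cells in 2 clusters with globins among their leading genes and 718 that stayed unnamed. Some classes were thin: Control 1 held 20 T and NK-like cells, and Nanocapsule 1 held 15 dendritic-like cells. Summed over the 32 members, a level is given below as CPM, the list's UMIs scaled to 1000000 UMIs of that class and library.

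The members were carried at a low level by very many tumour-like cells and at a high level by few immune cells. In tumour-like cells the summed level was 222 and 298 CPM in the controls and 318 and 458 CPM in the nanocapsule libraries, each time library 1 before library 2. Both nanocapsule libraries lay above both controls, and the means were 260 ± 53.9 and 388 ± 99.4 CPM (SD, n = 2 libraries each), a log2 ratio of 0.58. In macrophage-like cells it was 1273, 2599, 1463 and 1604 CPM in the same order. Control 2 was the highest there, the nanocapsule libraries lay between the controls, and the log2 ratio of the means was -0.34 (1936 ± 937 against 1534 ± 99.5 CPM). Macrophage-like cells thus held 5.75, 8.73, 4.61 and 3.50 times the tumour-like level.

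T and NK-like cells stood at 1022, 3623, 1165 and 1350 CPM and dendritic-like cells at 2491, 3400, 2715 and 2054 CPM. Control 2 was again the highest in both, and the groups overlapped in T and NK-like cells and in dendritic-like cells alike. B-like cells stood at 572, 470, 801 and 630 CPM, with both nanocapsule libraries above both controls but with only 54, 60, 98 and 44 UMIs of the list behind these values. The order of these 5 classes differed between libraries: dendritic-like cells were highest of the 5 in Control 1, Nanocapsule 1 and Nanocapsule 2, and T and NK-like cells in Control 2. Without Isg20 and Bst2 the dendritic-like level of Control 1 was 905 CPM and lay below the macrophage-like 989 CPM. Endothelial-like, fibroblast-like and neutrophil-like cells were not ranked, with 2 to 26 cells a library, although 2 endothelial-like and 5 fibroblast-like cells of Nanocapsule 2 stood at 2729 and 2108 CPM, above its dendritic-like cells. Because tumour-like cells made up most of the UMIs, they still gave 90.7%, 72.0%, 87.9% and 82.7% of all UMIs of the list, and macrophage-like cells 5.42%, 13.02%, 6.07% and 8.98%.

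Barcodes with fewer than 100 UMIs, taken as a reading of free RNA, carried the list at 236, 278, 360 and 482 CPM. That is close to the tumour-like level in each library and in the same order, while the macrophage-like, T and NK-like and dendritic-like levels lay well above it. How much of the tumour-like level was free RNA was not tested. The 10 immune marker genes summed to 9.32 and 8.83 CPM in the tumour-like cells of the controls and to 9.71 and 9.24 CPM in those of the nanocapsule libraries, with Cd3e and Cd3g at 0 in Control 1 and no marker at 0 elsewhere. By level the markers stayed within that range, but the share of tumour-like cells with such a UMI was 22.9%, 36.2%, 33.6% and 40.3%, in cells of unequal depth. Their part in the members' levels was not tested.

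**Figure D1:**
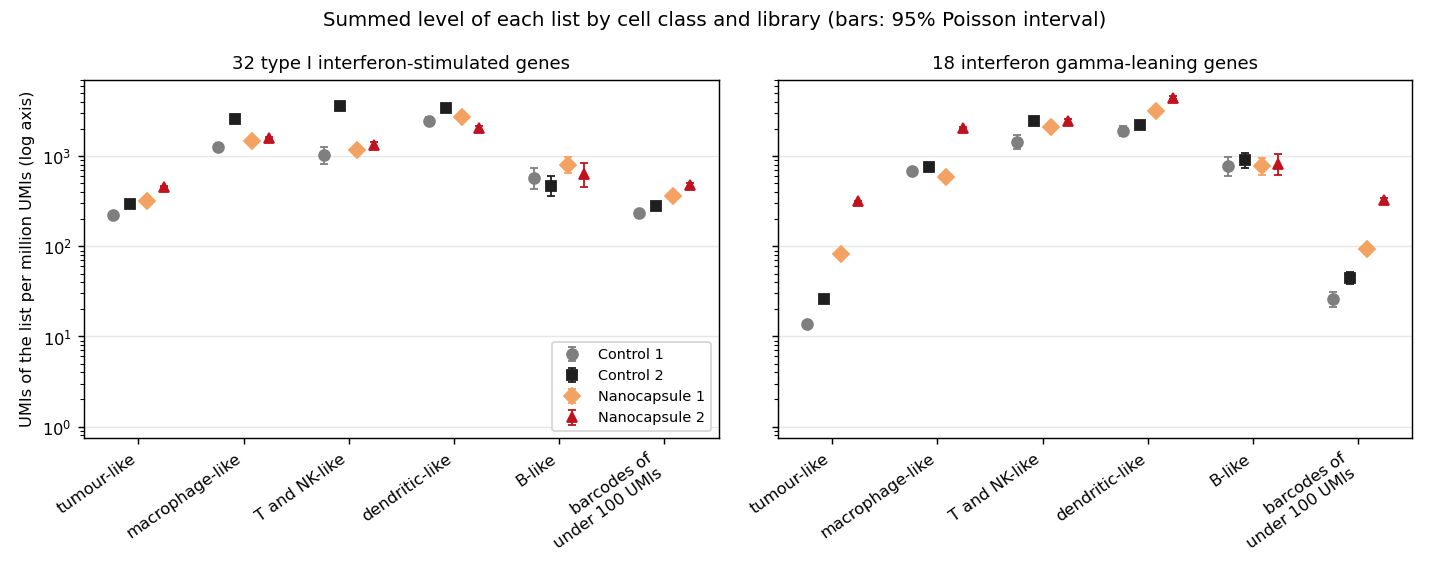
Summed level of the 32 members (left) and of 18 interferon gamma-leaning genes (right) in CPM on a log axis, by cell class, with 1 point per library and bars for the exact 95% Poisson interval, which covers counting error only. The tumour-like points of the members lie between 222 and 458 CPM, with the nanocapsule libraries on top, whereas Control 2 is the highest macrophage-like point at 2599 CPM.

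Which of the 5 classes had the highest level also depended on the gene. Oas1a and Oasl1 of the OAS family, whose enzymes make the oligoadenylates that switch on RNase L or sense RNA, and Rsad2, which makes a chain-terminating nucleotide, were highest in macrophage-like cells in all 4 libraries. Isg20, an exonuclease that degrades RNA, was highest in T and NK-like cells in all 4. Irf7, Usp18, Bst2 and Phf11b were highest in dendritic-like cells in all 4. Some of these ranks rest on few UMIs. Usp18 had 3 in the dendritic-like cells of Control 1 and 3 in those of Nanocapsule 1, and Isg20 had 4 in the T and NK-like cells of Control 1. Outside the 5 classes, the few endothelial-like cells of Nanocapsule 2 held more Bst2 (693 CPM), and its 5 fibroblast-like cells more Irf7 (153 CPM) and slightly more Isg20 (72.9 against 71.7 CPM). The highest class of the other 24 members differed between libraries. None was highest in tumour-like cells throughout, and 30 of 32 were lower in tumour-like than in macrophage-like cells in 4 of 4 libraries, the exceptions being Herc6 in 3 and Ifi44 in 2.

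In tumour-like cells the members leaned to the nanocapsule side together, and none passed the test. The log2 fold was above 0 for 30 of the 31 members tested, against 50.5% of all 16182 genes, and the exception was Oasl1 at -0.14. Their median log2 fold was 0.62, beside 0.00 for all genes. At an unadjusted p under 0.05, 9 members were higher, against 3.95% of all genes, and 0 were lower, against 3.5%. Both nanocapsule libraries lay above both controls for 14 members with TMM-normalised values, against 19.7% of all genes, and for 9 members when only library size was used, against 18.7%. At a Benjamini-Hochberg adjusted p under 0.05, edgeR's quasi-likelihood test called 0 of 16182 genes, whereas 639 were higher and 567 lower at an unadjusted p under 0.05. DESeq2 called 93 genes, 3 of them members: Isg20, Bst2 and Xaf1. Phf11b was below the filter on low counts, with 2, 8, 1 and 32 UMIs in the 4 libraries.

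Gene values from here on are TMM-normalised CPM in the order Control 1, Control 2, Nanocapsule 1, Nanocapsule 2. Irf7, the transcription factor that amplifies interferon production, stood at 0.540, 1.41, 0.952 and 2.34 CPM in tumour-like cells, with a log2 fold of 0.78 ± 0.60 (SE). The groups overlapped. In the ISG15 group (the ubiquitin-like Isg15, its ligase Herc6 and its protease Usp18) the 3 log2 folds ran from 0.28 to 0.45. Herc6 stood at 16.01, 18.7, 19.2 and 25.7 CPM and Isg15 at 9.30, 17.6, 12.7 and 24.0 CPM. Control 2 lay above Nanocapsule 1 for Isg15 and just below it for Herc6. By library size alone Control 2 lay above Nanocapsule 1 for Herc6 too, at 19.5 and 18.8 CPM.

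The 4 IFIT genes, whose proteins bind foreign RNA ends and block its translation, had log2 folds from 0.17 to 1.11. Ifit2 stood at 14.4, 17.1, 17.98 and 19.6 CPM, a log2 fold of 0.26 ± 0.11 with no overlap after TMM normalisation. By library size alone its groups overlapped, at 17.78 CPM in Control 2 and 17.66 CPM in Nanocapsule 1. Ifit3 and Ifit3b are near-identical neighbours on chromosome 19, and how their reads were shared out is uncertain. Of the 5 OAS genes 4 had log2 folds above 0, and none separated the groups. Oas1a stood at 3.35, 3.96, 3.23 and 5.83 CPM, with Nanocapsule 1 the lowest of the 4.

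All 5 sensors of nucleic acid had log2 folds above 0, 2 of them with an unadjusted p under 0.05. Zbp1, which detects left-handed nucleic acid and can start necroptosis, stood at 0.319, 1.15, 2.34 and 11.03 CPM, and its log2 fold of 3.24 ± 0.96 had an edgeR adjusted p of 0.659. The groups did not overlap, but Nanocapsule 2 stood far above Nanocapsule 1, and the log2 fold was 1.70 without Nanocapsule 2 and 4.38 without Control 2. Ifih1, a sensor of long double-stranded RNA, stood at 3.24, 4.60, 5.001 and 6.59 CPM. Eif2ak2, the kinase that stops translation on double-stranded RNA, stood at 27.5, 30.1, 27.7 and 33.96 CPM, overlapping, with a log2 fold of 0.10 ± 0.11.

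Among the other antiviral effectors, 6 of 6 tested had log2 folds above 0 and 3 separated the groups. Isg20 (chr7:78913424-78920396) stood at 8.59, 7.49, 15.4 and 14.9 CPM in tumour-like cells. The libraries of each group lay close together and the groups far apart. Its log2 fold of 0.92 ± 0.10 had an edgeR adjusted p of 0.338, the smallest among the members, and leaving out Control 1, Control 2, Nanocapsule 1 or Nanocapsule 2 gave 0.00189, 0.0309, 0.0799 and 0.0526. In such fits 1 arm is a single library, assumed to vary like the other arm. Bst2 (chr8:71534255-71537456), the membrane tether that holds back budding virus, stood at 90.8, 104, 134 and 181 CPM (log2 fold 0.70 ± 0.15). Samd9l, which restrains translation and growth, stood at 9.88, 9.15, 11.7 and 12.1 CPM (log2 fold 0.32 ± 0.09). Neither pair of groups overlapped, and the edgeR adjusted p of both was 0.659.

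The 3 members of the PARP group, Parp9, Parp14 and the ubiquitin ligase Dtx3l that works with Parp9, had log2 folds of 0.49 to 1.33. Each separated the groups after TMM normalisation. By library size alone Parp14 did not, at 2.839 CPM in Control 2 and 2.836 CPM in Nanocapsule 1. Dtx3l stood at 5.42, 6.08, 7.27 and 8.83 CPM and Parp9 at 6.84, 6.37, 8.35 and 12.97 CPM. Both nanocapsule libraries were above both controls for the pair. Their gene bodies overlap on opposite strands of chromosome 16, at the ends where both genes start, whereas the libraries are 10x 3-prime. Whether the overlap affects their counts was not tested. Of the remaining genes, Xaf1, a partner of the apoptosis inhibitor XIAP, stood at 3.78, 4.94, 7.03 and 10.8 CPM (log2 fold 1.03 ± 0.24, edgeR adjusted p 0.659). Ifi35 stood at 9.62, 10.4, 11.98 and 17.02 CPM. Neither gene's groups overlapped.

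**Figure D2:**
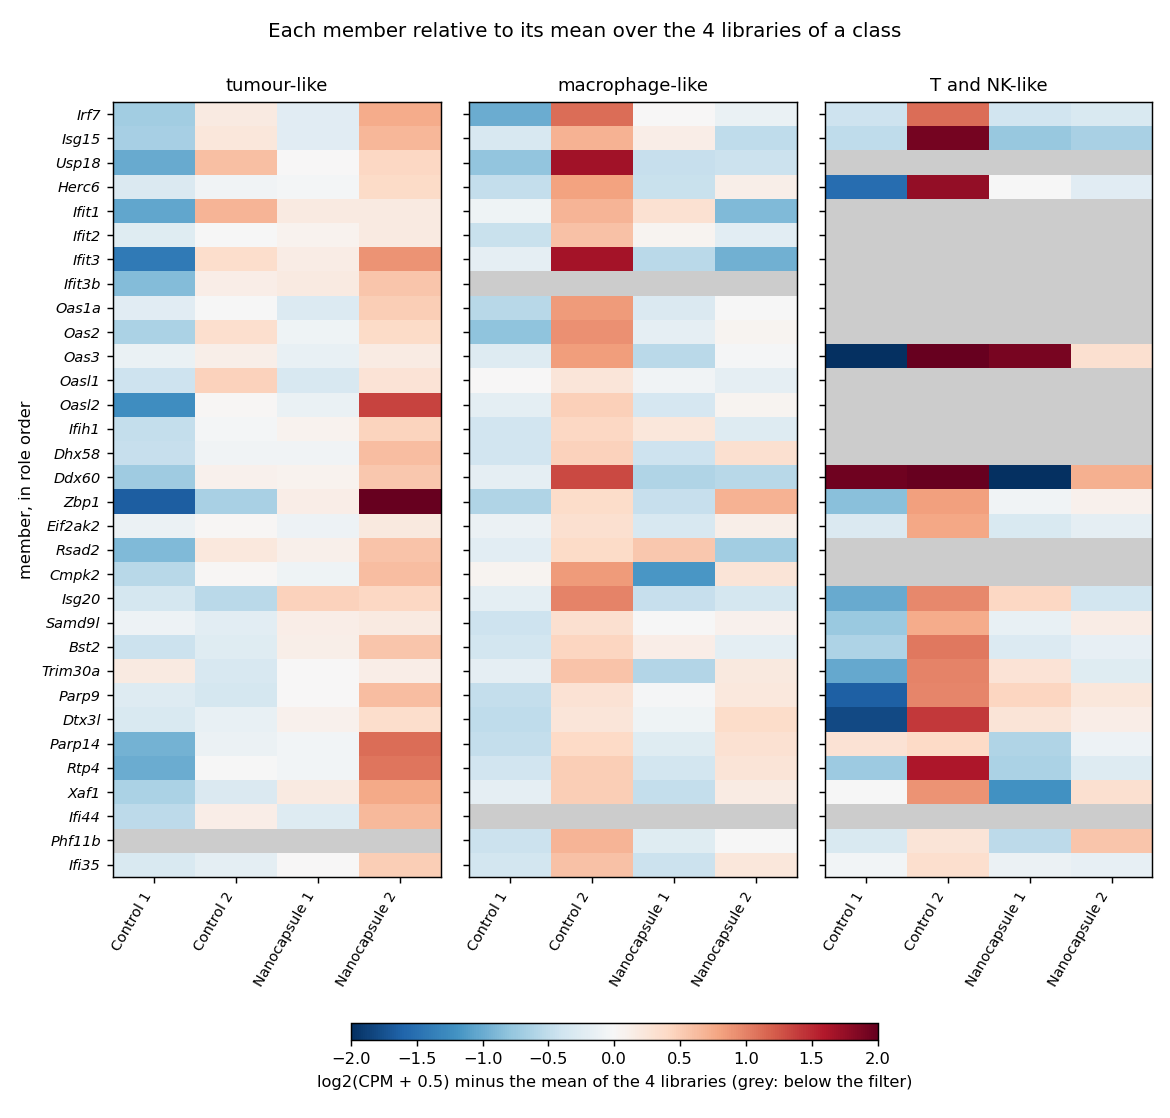
Each of the 32 members (rows, in role order) in each library (columns) for 3 cell classes, as log2(CPM + 0.5) minus the gene's mean over the 4 libraries, with grey for genes below the filter on low counts. In tumour-like cells the Nanocapsule 2 column is the reddest, and in macrophage-like and T and NK-like cells it is the Control 2 column.

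Single libraries gave much of this pattern. By library size alone, Nanocapsule 2 was the highest of the 4 tumour-like libraries for 29 of 32 members and lay above Nanocapsule 1 for 32 of 32, while Control 2 was highest for Usp18, Ifit1 and Oasl1. Control 1 lay below Control 2 for all members except Isg20, Samd9l and Trim30a. Leaving out Control 1, Control 2, Nanocapsule 1 or Nanocapsule 2 gave median log2 folds of 0.34, 1.26, 0.93 and 0.29 for the members. The members with an unadjusted p under 0.05 on the higher side were then 6, 17, 15 and 3, against 6.83%, 4.12%, 2.78% and 1.94% of all genes in the same fits. At an adjusted p under 0.05 edgeR called 1, 4, 2 and 0 members among 167, 21, 53 and 20 genes. The median stayed above 0 each time, and with tumour-like cells that held no immune marker UMI the median was 1.15, with 30 of 30 members tested above 0.

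A second interferon list leaned the same way in tumour-like cells, also with 0 genes past an adjusted p under 0.05 (edgeR). The 18 interferon gamma-leaning genes, none of them a member, summed to 13.8, 26.2, 82.5 and 317 CPM in tumour-like cells, in the same order of libraries. All 18 had log2 folds above 0, with a median of 3.57, and both nanocapsule libraries were above both controls for 17. Among tumour-like cells thinned to 8000 UMIs, those with 5 or more UMIs of the members held on average 0.723, 1.44, 3.62 and 10.3 UMIs of the gamma-leaning list. In macrophage-like cells 17 of 17 tested genes of that list had log2 folds above 0 (median 0.72) while the members' median was -0.30. There both nanocapsule libraries were above both controls for only 1 of the 17, against 15.5% of all genes. By library size alone Nanocapsule 2 was the highest macrophage-like library for each gene of the list. Nanocapsule 1 often lay below both controls, as for Gbp2 at 59.2, 56.1, 34.8 and 291 CPM. The part of interferon gamma in the members' levels was not tested.

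Most tumour-like cells held a trace of the list and few held much of it. Thinned to 8000 UMIs per cell (3134, 981, 1467 and 944 cells, with 6 to 43 shallower cells left out per library), 76.0%, 79.5%, 81.0% and 84.5% had at least 1 UMI of a member. Without thinning the shares were 98.5% to 99.8%, at median depths of 38628, 82576, 61784 and 90347 UMIs. Cells with 5 or more made up 6.09%, 8.05%, 12.3% and 19.9%, and cells with 10 or more 1.47%, 2.34%, 2.73% and 8.58%. Both nanocapsule libraries were above both controls at each of these limits, with Nanocapsule 1 close to Control 2 at 10 or more. The top 1% of cells held 9.58%, 21.04%, 17.3% and 11.8% of the list's UMIs, so the signal was most concentrated in Control 2. Without Isg20 and Bst2, 56.4%, 62.3%, 60.4% and 67.2% of cells had a UMI, and the groups overlapped.

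**Figure D3:**
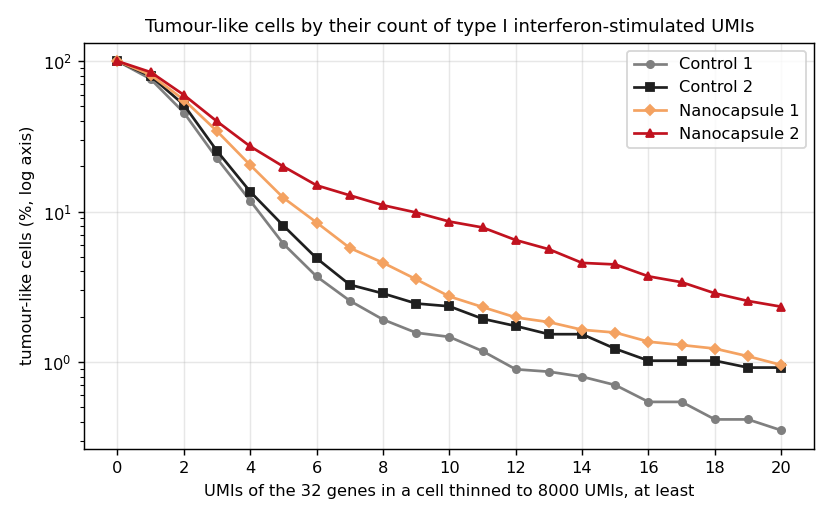
Share of tumour-like cells (percent, log axis) with at least the number of member UMIs on the horizontal axis, after thinning each cell to 8000 UMIs, with 1 line per library. The Nanocapsule 2 line is the highest from 1 UMI on (8.58% of cells at 10 or more), and the Control 1 line the lowest (1.47%).

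A small cluster of tumour-like cells carried a part of the list that differed widely between libraries. The cluster led by Iigp1, Gbp4 and Gbp6 held 100, 34, 70 and 67 cells, and Ifit3 was among its leading genes. No member was used for the clustering, but Gbp6 and Ifi47, also leading genes, were not in the lists left out. In this cluster the members summed to 413, 2309, 991 and 1864 CPM, and it gave 5.07%, 21.1%, 13.2% and 29.98% of the tumour-like list UMIs. By level Control 2 was the highest and Control 1 the lowest. Isg15 stood in it at 39.2, 323, 78.9 and 155 CPM. In the 7 larger clusters outside it the list without Isg20 and Bst2 lay between 101 and 231 CPM, and the cluster led by Gm20628 and histone genes gave 117, 131, 140 and 175 CPM. A further cluster of 49, 41, 23 and 15 cells, led by Gm26917 and Neat1, gave 166, 211, 285 and 670 CPM. The extent of the Iigp1-led cluster depended on the clustering. Such a cluster held 30, 14, 77 and 177 cells with the members among the variable genes. At Leiden resolution 2.0 it held 18, 17, 20 and 53 cells. Another cluster at that resolution had Hbb-bs first and Iigp1, Gbp4, Gbp6 and the member Zbp1 among its leading genes. It held 113, 78, 136 and 85 cells with a median of 3591.5 UMIs and stayed unnamed.

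Isg20 had its own distribution. It stood at 29.5, 31.7, 39.0 and 38.6 CPM in the cluster led by Pgf and Nppb and at 14.9, 45.4, 69.2 and 71.0 CPM in the cluster led by Fgf21. Both nanocapsule libraries lay above both controls in each. In the Iigp1-led cluster it stood at 7.84, 17.5, 10.3 and 9.51 CPM, with Control 2 the highest. The dividing cells led by Cdc20 held 0.600 to 0.696 CPM in the 4 libraries.

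**Figure D4:**
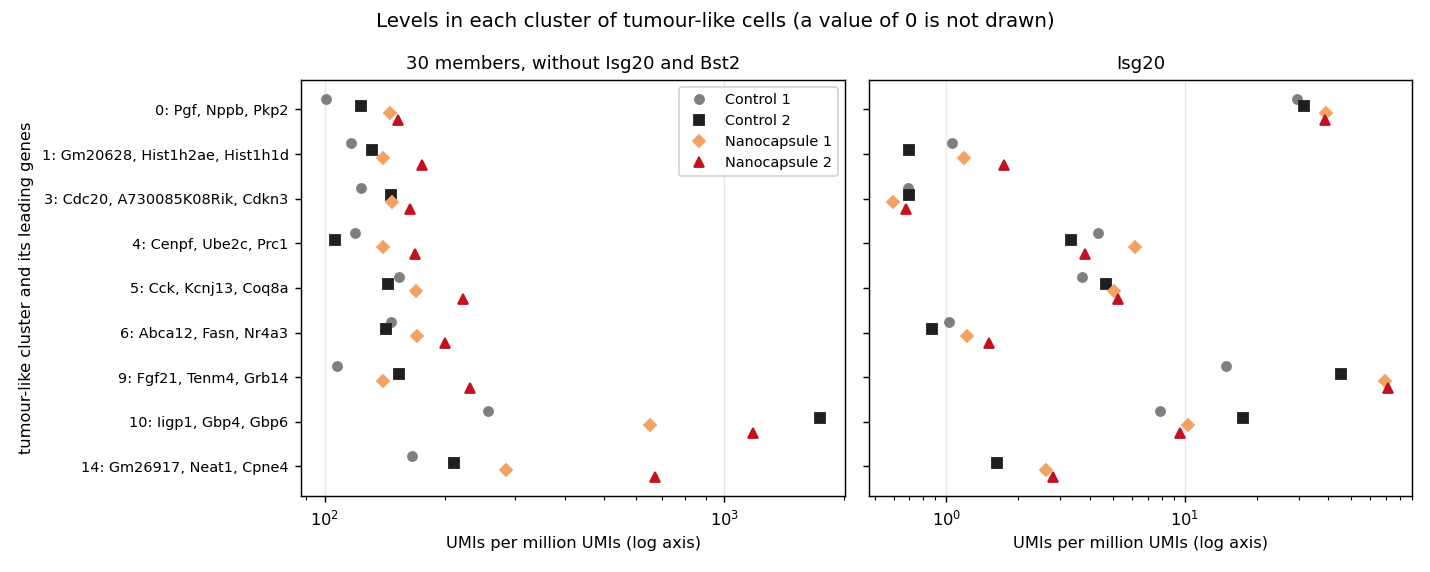
Level in each cluster of tumour-like cells (rows, with leading genes) on a log axis, for the 30 members other than Isg20 and Bst2 (left) and for Isg20 (right), with 1 point per library. The 30 members are highest in the Iigp1-led cluster, and Isg20 is highest in the clusters led by Fgf21 and by Pgf.

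In macrophage-like cells the members leaned the other way, and Control 2 set the direction. Of 30 members tested 5 had log2 folds above 0, against 51.5% of all 9523 genes, with a median of -0.30 beside 0.01. At an unadjusted p under 0.05, 2 members were lower, against 1.53% of all genes, and 0 were higher, against 1.3%. Both nanocapsule libraries lay below both controls for 4 members (13.3%), no more than the 14.6% of all genes, and above both for 0, against 15.5%. The edgeR test called 0 genes at an adjusted p under 0.05, where 124 were higher and 146 lower unadjusted, and DESeq2 called 4 genes and no member.

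The 5 members with the smallest p were spread over the roles. Ifit3 stood at 28.2, 103, 21.8 and 16.2 CPM (log2 fold -1.83 ± 0.58) and Ddx60, a helicase that aids RNA sensing, at 13.7, 39.7, 10.1 and 10.4 CPM (log2 fold -1.39 ± 0.51). Isg20 stood at 24.4, 56.6, 20.3 and 22.0 CPM (log2 fold -0.95 ± 0.41). Control 2 was far above the other 3 libraries each time, which lay close together, and Control 1 was the next highest. Usp18, the protease that removes Isg15 and damps the receptor, stood at 9.16, 53.1, 11.7 and 11.9 CPM, and Oas3 at 15.3, 33.3, 12.5 and 18.01 CPM. Both overlapped, and the edgeR adjusted p of all 5 was 1.00. Irf7 stood at 44.3, 192, 88.9 and 80.7 CPM, Isg15 at 165, 333, 227 and 146 CPM and Bst2 at 262, 457, 371 and 295 CPM. Control 2 was the highest for all 3, and Control 1 was the lowest for Irf7 and Bst2.

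The tested members below had log2 folds smaller in size than the 5 with the smallest p. Ifit2 stood at 37.4, 76.4, 53.1 and 43.9 CPM, Oasl2 at 40.4, 65.4, 36.7 and 48.6 CPM and Rtp4, a chaperone of membrane receptors, at 42.7, 78.2, 42.9 and 67.0 CPM. Control 2 was highest again. The 3 PARP group members had log2 folds of 0.04 to 0.26, and Parp14 stood at 35.1, 64.8, 41.3 and 60.5 CPM. Zbp1 stood at 48.1, 95.1, 53.1 and 119 CPM, so here Nanocapsule 2 was the highest. Ifit3b and Ifi44 were below the filter, with 6, 22, 3 and 5 UMIs and 0, 14, 3 and 1 UMIs.

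By library size alone, Control 2 was the highest macrophage-like library for 29 of 32 members, and Control 1 exceeded it for none. Without Control 2 the median log2 fold of the members was 0.34 and 24 of 30 were above 0. Larger cells gave the same turn: with a minimum set per library from its own largest barcodes (8763 to 16257 UMIs), the median was 0.43 and 22 of 25 members were above 0. The macrophage-like cells of the nanocapsule libraries were deeper, with medians of 6048.5 and 9408.5 UMIs in the controls and 11766.5 and 14187 UMIs in the nanocapsule libraries. Melanocytic markers (4 of 4 present in each library) summed to 2193 and 916 CPM in the controls and to 2286 and 2277 CPM in the nanocapsule libraries, and were lowest in Control 2. With macrophage-like cells free of such UMIs the members' median log2 fold was -0.03.

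A few cells held much of the macrophage-like signal. In cells thinned to 8000 UMIs (49, 85, 67 and 97 cells, with 89, 63, 23 and 19 shallower cells left out) the mean was 8.33, 19.8, 14.3 and 17.2 UMIs of the list, whereas the median cell held 5, 7, 5 and 11. The top 5% of cells held 33.1%, 51.3%, 37.3% and 26.9% of these UMIs, most in Control 2. So the mean was highest in Control 2 and the median in Nanocapsule 2. With all cells thinned to 1500 UMIs the means were 2.71, 4.57, 2.03 and 3.58, and Nanocapsule 1 was the lowest.

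**Figure D5:**
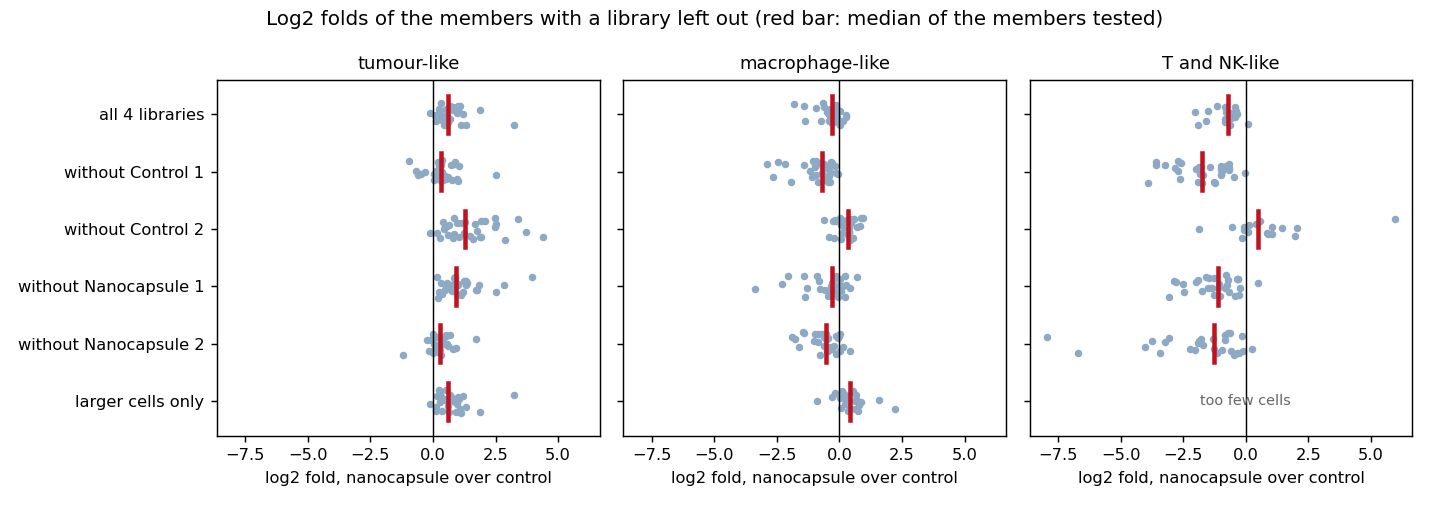
Log2 folds of the tested members (points) in 3 cell classes with all 4 libraries, with each library left out, and with larger cells only (a minimum of 8763 to 16257 UMIs per library), with a red bar at the median. The tumour-like median stays above 0 throughout, and without Control 2 the medians of macrophage-like and T and NK-like cells are 0.34 and 0.49.

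T and NK-like cells also followed Control 2. Of 18 members tested 1, Phf11b, had a log2 fold above 0, against 50% of all 5577 genes, and the median was -0.72 beside 0.00. At an unadjusted p under 0.05, 5 were lower, against 3.75% of all genes, and 0 higher, against 3.89%. Both nanocapsule libraries lay below both controls for 4 (22.2%), against 17.6% of all genes. The edgeR test called 0 genes at an adjusted p under 0.05 (217 higher and 209 lower unadjusted), and DESeq2 called 3 genes and no member.

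Isg15 stood at 109, 586, 91.4 and 99.3 CPM in these cells, a log2 fold of -2.03 ± 0.57 with an edgeR adjusted p of 0.491. Control 2 stood apart, and the nanocapsule libraries lay a little below Control 1. Rtp4 stood at 36.4, 188, 39.2 and 51.1 CPM and Irf7 at 60.7, 177, 62.0 and 65.7 CPM, with the other 3 libraries close together. Herc6 stood at 12.1, 123, 35.9 and 30.7 CPM and Ddx60 at 48.6, 51.8, 0 and 20.4 CPM. Isg15 separated the groups, although its Control 1 value rests on 9 UMIs. Rtp4, Irf7 and Herc6 rest on 3, 5 and 1 UMIs in Control 1. Ddx60 reached the count filter only in the controls, so it had to be lower in the nanocapsule libraries, and without it 4 of 17 members were lower at an unadjusted p under 0.05 and 3 lay below both controls. Without Control 2 the median log2 fold of the members was 0.49 and 13 of 18 were above 0, and without Control 1, which rests on 20 cells, it was -1.75 and 3 members were among the 33 genes that passed an adjusted p under 0.05. Leaving out Nanocapsule 1 or Nanocapsule 2 gave medians of -1.10 and -1.28, with 2 and 0 members among 52 and 3 genes called.

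Thinned to 1500 UMIs, 17 of 80 T and NK-like cells of Control 2 held 10 or more UMIs of the list, against 0 of 20, 1 of 50 and 2 of 66 in the other 3 libraries. The count of 0 allows a share of up to 15% in Control 1. T-like cells made up 89.5% of the list's UMIs in this class in Control 2 and stood there at 4043 CPM, and NK-like cells stood at 1926 CPM. Both were the highest of the 4 libraries for their type.

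Other classes gave little to test. In B-like cells 2 members passed the filter on low counts, both only through the nanocapsule libraries, so the filter itself chose members that were higher there and their direction is no result. The edgeR test called 3 of 1955 genes (0.153%), all lower and none a member. Samd9l stood at 110, 60.2, 201 and 183 CPM (log2 fold 1.24 ± 0.44, edgeR adjusted p 0.895) and Ifi35 at 110, 70.2, 148 and 128 CPM. These rest on 6 to 19 UMIs per library. Dendritic-like cells were not fitted, since Nanocapsule 1 held 15. There Zbp1 stood at 47.3, 61.0, 125 and 158 CPM before TMM normalisation, and Rtp4 at 20.3, 22.9, 78.2 and 53.4 CPM. Bst2 stood at 1553, 1396, 1072 and 505 CPM and Irf7 at 128, 244, 102 and 119 CPM. At a finer clustering the class held 9, 16, 4 and 5 plasmacytoid-marked and 14, 36, 11 and 28 conventional-marked cells. Within the plasmacytoid-marked cells Bst2 overlapped between the groups. The part of this mixture in the class values was not tested. The nanocapsule libraries were both above the controls for Zbp1 and Rtp4 and both below them for Bst2 and Irf7. The Irf7 values of Control 1 and Nanocapsule 1 rest on 19 and 13 UMIs. These genes are examples. Other members also separated above (Parp9 at 47.3, 42.0, 62.6 and 71.2 CPM) or below (Isg20 at 33.8, 61.0, 0 and 11.9 CPM). The share over all genes was not computed for this class.

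The treatment difference itself differed between macrophage-like and tumour-like cells for 7 members. The log2 fold in macrophage-like minus that in tumour-like cells was tested in one edgeR fit with library as a block. It passed an adjusted p under 0.05 for 7 of 32 members, against 0.662% of all 16161 genes, and an unadjusted p under 0.05 for 19, against 4.78%. It was below 0 for 32 of 32 members, with a median of -0.96 beside 0.03 for all genes. The 7 were Ifit3 (-2.85 ± 0.40, adjusted p 1.21e-09), Zbp1 (-2.84 ± 0.31, adjusted p 1.88e-16), Oasl2 (-2.24 ± 0.41, adjusted p 2.22e-05), Isg20 (-1.81 ± 0.37, adjusted p 0.000411), Xaf1 (-1.33 ± 0.36, adjusted p 0.0378), Rtp4 (-1.32 ± 0.33, adjusted p 0.0159) and Isg15 (-0.83 ± 0.23, adjusted p 0.0468). That fit leaves 2 residual degrees of freedom, and edgeR gave each gene the spread of the trend over all genes, so these p-values rest on spread borrowed across genes.

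Zbp1 passed in each of the 7 alternatives run per gene, with a difference of -2.26 in larger cells only. The other 6 did not pass in larger cells or with macrophage-like cells free of melanocytic UMIs, where 1 member was called each time. Leaving out Control 1, Control 2, Nanocapsule 1 or Nanocapsule 2 left 8, 3, 11 and 3 members called, among 244, 40, 89 and 79 genes (1.46%, 0.24%, 0.532% and 0.479% of those tested). In larger cells 10 of 32 differences lay above 0, Isg15 among them at 0.10, and 5 did without Control 2.

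Along the pathway, from ligand to factor, the members' inputs were measured too. Of 20 type I and III interferon genes in the feature tables, 5 had a UMI in a called cell. Ifnb1, the beta interferon gene, had 7, 0, 7 and 4 UMIs, from 2, 0, 3 and 1 cells, and all 18 were in macrophage-like cells. Of the alpha interferon genes, Ifnab had 1 UMI, in a tumour-like cell of Control 1, and the 13 rows named Ifna with a number had none in the 9548 cells. Ifng had 11, 34, 74 and 272 UMIs, 380 of the 391 in T and NK-like cells, where it stood at 109, 92.7, 242 and 384 CPM (log2 fold 1.69 ± 0.35, edgeR adjusted p 0.288). The groups did not overlap, and Nanocapsule 2 was the highest.

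Receptor and kinase genes differed little in tumour-like cells: 3 of 7 had log2 folds above 0 and the median was -0.01. Ifnar1 stood at 28.5, 29.3, 29.4 and 27.9 CPM, Ifnar2 at 60.6, 51.8, 59.2 and 54.8 CPM and Jak1 at 64.0, 57.3, 73.9 and 64.6 CPM. Ifnar1 and Ifnar2 overlapped between the groups, while for Jak1 Nanocapsule 2 lay just above Control 1. Irf9, the DNA-binding part of the type I complex, stood at 3.85, 3.62, 4.99 and 7.30 CPM (log2 fold 0.72 ± 0.20, edgeR adjusted p 0.659). Both nanocapsule libraries lay above both controls. Genes for the induction of interferon had log2 folds above 0 in 5 of 9 tested, with Tbk1 at 21.6, 22.3, 21.6 and 23.5 CPM, and negative regulators in 3 of 5, with Ptpn2 at 41.8, 41.4, 40.8 and 41.2 CPM.

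Over all called cells together, the opposite leanings of the classes were summed into one value. Of 32 members 28 had log2 folds above 0, against 50.6% of 17333 genes, with a median of 0.44. At an unadjusted p under 0.05, 5 were higher, against 2.46%, and 0 lower, against 2.9%. Both nanocapsule libraries were above both controls for 7 (21.9%), against 17.6% of all genes. The edgeR test called 0 genes at an adjusted p under 0.05, with 427 higher and 503 lower unadjusted. DESeq2 called 65 genes, 1 of them a member. Isg20 stood at 8.80, 10.1, 17.2 and 16 CPM (log2 fold 0.81 ± 0.10, edgeR adjusted p 0.879). The median was 0.07 without Control 1, 1.23 without Control 2, 0.71 without Nanocapsule 1 and -0.034 without Nanocapsule 2.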

How the data were processed

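UMI counts were taken as deposited by the authors: 1 unfiltered matrix of raw counts per library, from 10x 3-prime libraries per the labels. The submitters' processing notes name Cell Ranger 2.1.1 and mm10, whereas the file headers name Cell Ranger 4. Cells were barcodes with at least 1500 UMIs, 200 genes and at most 20% mitochondrial UMIs. Scrublet marked 13, too few to count as working, so none was removed, and shared barcodes were kept. Cells were clustered in scanpy 1.11.5 on 2000 variable genes without the members and pathway lists (30 components, 15 neighbours, Leiden resolution 1.0). Classes were named from markers. Globin-led clusters were left out of the reference for naming tumour cells after seeing the clusters.

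UMIs were summed per class and library. edgeR 4.0.16 (filterByExpr, TMM, robust quasi-likelihood) gave log2 folds, with Benjamini-Hochberg adjustment over all genes tested. DESeq2 1.42.0 was an alternative. Classes under 20 cells in a library were not fitted. Scripts were tested on simulated data. Intervals cover counting error only. For tumour-like and macrophage-like cells, values were given for the 5 members with the smallest p. There the member of each role with the highest mean CPM was given too. For T and NK-like cells the 5 with the smallest p were given, for B-like cells the 2 tested, and over all cells Isg20 alone. Members and lists were chosen with earlier results of these data known. Near-identical and overlapping genes are uncertain. Coordinates follow GRCm38, GENCODE vM21. One pathway gene and the counts that need it are not reported here.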

Additional observations from a re-analysis of the deposited data

Results flagged for a closer look

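For 7 members the treatment difference differed between macrophage-like and tumour-like cells by the test of that difference (edgeR, class by treatment, library as a block). That test rests on spread borrowed across genes. Of the 7, only Zbp1 also passed in larger cells and with macrophage-like cells free of melanocytic UMIs. The log2 fold in macrophage-like minus that in tumour-like cells was -2.85 for Ifit3, -2.84 for Zbp1, -2.24 for Oasl2, -1.81 for Isg20, -1.33 for Xaf1, -1.32 for Rtp4 and -0.83 for Isg15. For Ifit3, Control 2 was the highest macrophage-like library and Nanocapsule 2 the highest tumour-like library. Zbp1 was highest in Nanocapsule 2 in both classes, and its log2 fold was 3.24 in tumour-like and 0.28 in macrophage-like cells. Isg20 was 0.92 in tumour-like and -0.95 in macrophage-like cells. The cause of these differences was not tested.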

How the results depend on the processing

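Depth limits the immune classes: with the larger cells only, T and NK-like and B-like cells were too few to fit, and dendritic-like cells were not fitted at all. In the order all genes and members, counts past an adjusted p under 0.05 in tumour-like cells were 93 and 3 with DESeq2, 6 and 1 with no filter on low counts, and 20 to 167 and 0 to 4 with a replicate left out. They were 1 and 0 in cells without immune marker UMIs. In macrophage-like cells they were 4 and 0 with DESeq2 and 51 and 1 with no filter. In T and NK-like cells they were 3 and 0 with DESeq2, 58 and 6 with no filter, and 3 to 52 and 0 to 3 with a replicate left out. In B-like cells all-gene counts were 1 with DESeq2, 20 with no filter and 8 to 29 with a replicate left out, against 3 in the fit reported, and over all cells DESeq2 gave 65 and 1.

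The labels number the libraries 1 and 2 in both groups without saying that a number pairs them, so pairing rests on the number alone. With the replicate number as a block the counts were 602 and 16 in tumour-like, 3 and 0 in T and NK-like, 8 and 0 in B-like and 120 and 5 in all cells, and 0 and 0 in macrophage-like cells.

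Members' median log2 folds with a replicate left out ran from -0.69 to 0.34 in macrophage-like, -1.75 to 0.49 in T and NK-like, 0.56 to 1.30 in B-like (members the count filter chose) and -0.034 to 1.23 in all cells. The median was 0.53 in B-like cells with no filter. Larger cells only gave 0.43 in macrophage-like cells, with Ifit3 at 0.66 and Isg20 at 0.78. With a replicate left out, log2 folds ran from -1.09 to 0.037 for Oas3 and -2.17 to 0.36 for Usp18 in macrophage-like cells, and from -1.89 to 1.43 for Herc6, -1.45 to 0.11 for Irf7 and -1.99 to 0.39 for Rtp4 in T and NK-like cells. Each first value is without Control 1 and each second without Control 2.

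For the difference between the classes, all-gene and member counts were 44 and 1 in larger cells, 15 and 1 with macrophage-like cells free of melanocytic UMIs, 52 and 8 with tumour-like cells free of immune marker UMIs, and 40 to 244 and 3 to 11 with a replicate left out. The Isg15 difference was 0.10 in larger cells. These cell sets, the fit without TMM and the list without Isg20 and Bst2 were chosen after seeing the data.

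The log2 ratio of the summed level in larger cells was 0.32 in macrophage-like, 1.19 in T and NK-like and 0.84 in dendritic-like cells. In dendritic-like cells it was 0.12 without Bst2, 0.11 without Bst2 and Eif2ak2 and 0.16 without Isg20 and Bst2. In larger cells the tumour-like share of the list's UMIs was 90.9% in nanocapsule libraries, and the macrophage-like share 3.25% in controls and 5.03% in nanocapsule libraries. Thinned to 1500 UMIs, 27.8% and 35.1% of tumour-like cells had a UMI of the list. Of 635 values under alternatives, 334 of those on single genes kept their direction and side of the threshold. Another 24 on single genes gained the threshold, 22 lost it and 8 reversed. Of the values on whole comparisons, 181 stayed close to the reported value, 56 moved further and 10 reversed sign. Close meant within a set ratio for counts and within the SD between libraries for medians, levels and shares. The cause of each change was not tested.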

Other observations

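Dendritic-like cells held 2 kinds of cell at a finer clustering (Leiden resolution 2.0). In the cluster led by Siglech, Klk1 and Ly6d, which carried plasmacytoid markers, the members summed to 6437, 5914, 5348 and 4810 CPM in the 4 libraries (controls first), from 9, 16, 4 and 5 cells. Bst2 alone, which plasmacytoid dendritic cells of mice are known to carry at rest, stood there at 5045, 4067, 4910 and 3768 CPM. In the cluster led by Cd209a and Ccl22, with conventional dendritic markers, the members summed to 1019, 2535, 2143 and 1784 CPM, from 14, 36, 11 and 28 cells, with Control 1 the lowest and Control 2 the highest. No fit was made on so few cells.

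Isg20 led an unnamed cluster together with Cdsn and Fgf21 (488 cells with a median of 4956.5 UMIs). It stood there at 25.1, 96.0, 98.7 and 77.1 CPM, and Control 1 was far below the other 3 libraries. Clusters with globins among their leading genes carried the list at 160, 204, 228 and 534 CPM, with Nanocapsule 2 the highest, and the gamma-leaning list at 34.4, 32.3, 91.7 and 727 CPM.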
